A study of Mus musculus with 46 samples.

Results

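The heat-shock chaperone genes described here are 10 mouse genes of 19521 genes in the deposited expression table. The list was set by symbol, with earlier results of these data known. They are Hspa1a and Hspa1b, which encode the stress-inducible HSP70 proteins; Hspa8, the constitutive HSP70; Hsp90aa1 and Hsp90ab1, the inducible and constitutive cytosolic HSP90; and Dnajb1, an HSP40 J-domain partner of HSP70. The others are Hsph1, the HSP110 nucleotide exchange factor; Hspb1, a small heat-shock protein; and Hspd1 and Hspe1, the mitochondrial HSP60 and its co-chaperonin HSP10. All 10 symbols were found, each in 1 row.

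Molecular chaperones bind unfolded proteins and help them to fold, and several are induced when proteins are damaged by heat, toxins or handling of cells. Induction runs through heat-shock factor 1 (HSF1), which is held inactive in unstressed cells and, once released, binds inverted repeats of a short GAA unit in the promoters of its target genes. In thymocytes, as in other growing cells, HSC70, HSP90 and the mitochondrial chaperonin are abundant without stress, whereas the inducible HSP70 genes are short, lack introns and respond within minutes.

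RNA sequencing covered 40 libraries of sorted primary T-lineage cells from C57BL/6 mice kept under specific-pathogen-free conditions, in 14 groups. The genotype was either wild type or hCD2-LMO2 knock-in, called transgenic here, in which hCD2 names the human CD2 promoter, active in T-lineage cells, and LMO2 is a transcriptional adaptor and T-cell leukaemia oncogene. Thymic fractions of both genotypes were DN1, total double-negative cells (DN), DN3, double-positive cells (DP), CD4 single-positive (CD4SP) and CD8 single-positive (CD8SP) cells, and splenic CD4 and CD8 T cells came from transgenic mice. Wild-type DN1 had 1 library and the other 13 groups had 3 each; the labels state no age, sex or pooling of mice. No source says that the 3 libraries of a group came from separate mice, so p-values measure the spread between these libraries, which may be technical.

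Library totals ran from 17211426 to 28842773 counts. Lmo2 was between 16.7 and 91.2 CPM (counts scaled to library size) in the transgenic libraries other than 1: the library labelled transgenic DP replicate 3 held 0.395 CPM, within the wild-type DP range of 0.119 to 0.473 CPM. Defining markers matched DN3 (Il2ra at 1105 CPM in wild type) and DP (Rag1 at 7932 CPM), but the libraries labelled DN1 carried Cd4 at 548 CPM and Cd8a at 463 CPM in wild type. Transgenic CD4SP cells held Cd8a at 1330 CPM against 79.6 CPM in wild type. In 12 of the 40 libraries the column name ends in the letter N, which no label explains; 8 groups hold both kinds of name. Of the 10 genes 6 differed by that letter, so it is treated after the genotype comparisons. It is named beside many results, but not beside each one it may touch. In DN and CD4SP cells only transgenic libraries carry it, so genotype and letter partly coincide there for every gene.

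The sequences upstream of the start sites show how alike the inducible pair is and where HSF1-type repeats lie. RefSeq promoter entries (GRCm38.p6, 250 bases before the start) matched 7 of the 10 genes; Hspa8, Hsp90aa1 and Hsp90ab1 had no entry. Repeats were searched on both strands as TTCNNGAA (a tail-to-tail pair) and GAANNTTC (head to head), and as 3-unit forms in which a tail-to-tail pair is followed by NNTTC or a head-to-head pair by NNGAA; these overlap the pairs they contain. A match in capitals marks letters only, not a bound site.

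The 2 HSP70 promoters are shown whole because the results turn on this near-identical pair; they lie on the minus strand at chr17:34972157-34972406 for Hspa1a and chr17:34959239-34959488 for Hspa1b.
Hspa1a: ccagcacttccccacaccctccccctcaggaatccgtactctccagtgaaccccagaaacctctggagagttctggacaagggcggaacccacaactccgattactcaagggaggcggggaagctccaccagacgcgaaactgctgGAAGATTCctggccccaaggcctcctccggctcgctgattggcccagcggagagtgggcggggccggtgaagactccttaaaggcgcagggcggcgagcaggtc
Hspa1b: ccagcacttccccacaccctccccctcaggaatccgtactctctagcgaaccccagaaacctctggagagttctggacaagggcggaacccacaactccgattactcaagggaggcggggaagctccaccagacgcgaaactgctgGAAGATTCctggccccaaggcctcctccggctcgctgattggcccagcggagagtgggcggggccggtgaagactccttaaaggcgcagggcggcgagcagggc

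These stretches were identical at 247 of 250 bases (98.8%). The 3 differences were C44T, T47C and T249G, counted from 1 at the 5′ end, with the Hspa1a base first and the Hspa1b base last. Both held 1 head-to-head pair, at 104 to 97 bases before the start, and neither held a 3-unit repeat of these letters.

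For the other genes only the 30 bases around the repeat are shown, to compare their arrangement; they lie at chr1:55088053-55088082 (plus strand) for Hspe1, chr5:149636351-149636380 (minus) for Hsph1 and chr5:135887801-135887830 (plus) for Hspb1.
Hspe1: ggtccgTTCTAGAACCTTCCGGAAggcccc
Hsph1: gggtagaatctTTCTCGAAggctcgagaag
Hspb1: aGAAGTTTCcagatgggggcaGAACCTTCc

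The Hspe1 repeat had alternating units without a break, from 89 to 72 bases before its start. Hspd1 is transcribed in the opposite direction from a start nearby, and the same letters on the other strand lie 144 to 127 bases before the Hspd1 start that RefSeq lists on that side. Hsph1 held 1 tail-to-tail pair and Hspb1 held 2 separate head-to-head pairs. Neither Dnajb1 start had any of these letters in this window. Of all 32851 RefSeq promoters of this length, 12.8% held either pair and 0.466% a 3-unit form. Counted by gene with any of its starts, 3932 of 27025 genes held a pair and 139 a 3-unit form. By that count 6 of the 7 chaperone genes with an entry held a pair and 2 held a 3-unit form. Hspa1a and Hspa1b are near-identical there, and Hspd1 and Hspe1 share the same letters, so these genes are not separate cases.

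On the per-length scale of the authors' deposited FPKM, which allows genes to be compared, Hspa8 was the most abundant of the 10, with a median of 2237 FPKM over the libraries (range 686.8 to 3740). Hsp90ab1 followed with a median of 1545 FPKM and Hsp90aa1 with 322.3 FPKM. Hspe1, Hspd1, Hsph1 and Dnajb1 had medians of 132.7, 106.8, 68.3 and 65.1 FPKM. Hspa1b and Hspa1a had lower medians, of 5.37 and 2.85 FPKM, and Hspb1 had a median of 0.21 FPKM. All levels below are in CPM after TMM scaling, which compares 1 gene between libraries.

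The inducible pair had the widest range of levels of the 9 genes detected in every library. Hspa1a ran from 0.0359 CPM in 1 transgenic DP library to 266.6 CPM in 1 transgenic splenic CD4 library, and its group means from 0.494 to 99.0 CPM, a ratio of 200.5. Hspa1b ran from 0.369 to 399.4 CPM with a ratio of group means of 98.9. Both genes had the same 3 lowest groups by mean, transgenic DP, wild-type DN3 and wild-type DP, and the same 4 highest, the 2 splenic groups and both CD4SP groups. Of 13 neighbouring pairs in that order, the libraries overlapped in 12 for Hspa1a and in 11 for Hspa1b, so most neighbours did not differ beyond their spread.

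The spread within groups set that overlap. In wild-type DP, Hspa1a was 12.6, 0.318 and 0.316 CPM in replicates 1 to 3, so 1 library lay far above the other 2. In transgenic CD4SP it was 116, 0.374 and 138 CPM, and in transgenic CD8SP 0.293, 73.3 and 0.333 CPM. Here 1 library was low and 1 library was high, respectively. Transgenic splenic CD4 cells held 29.4, 267 and 1.05 CPM and splenic CD8 cells 5.88, 19.1 and 213 CPM. Over the 13 groups with 3 libraries, the median ratio of the highest to the lowest library of a group was 14.8 for Hspa1a and 9.69 for Hspa1b, against 1.60 to 3.10 for the 7 abundant members.

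**Figure D1:**
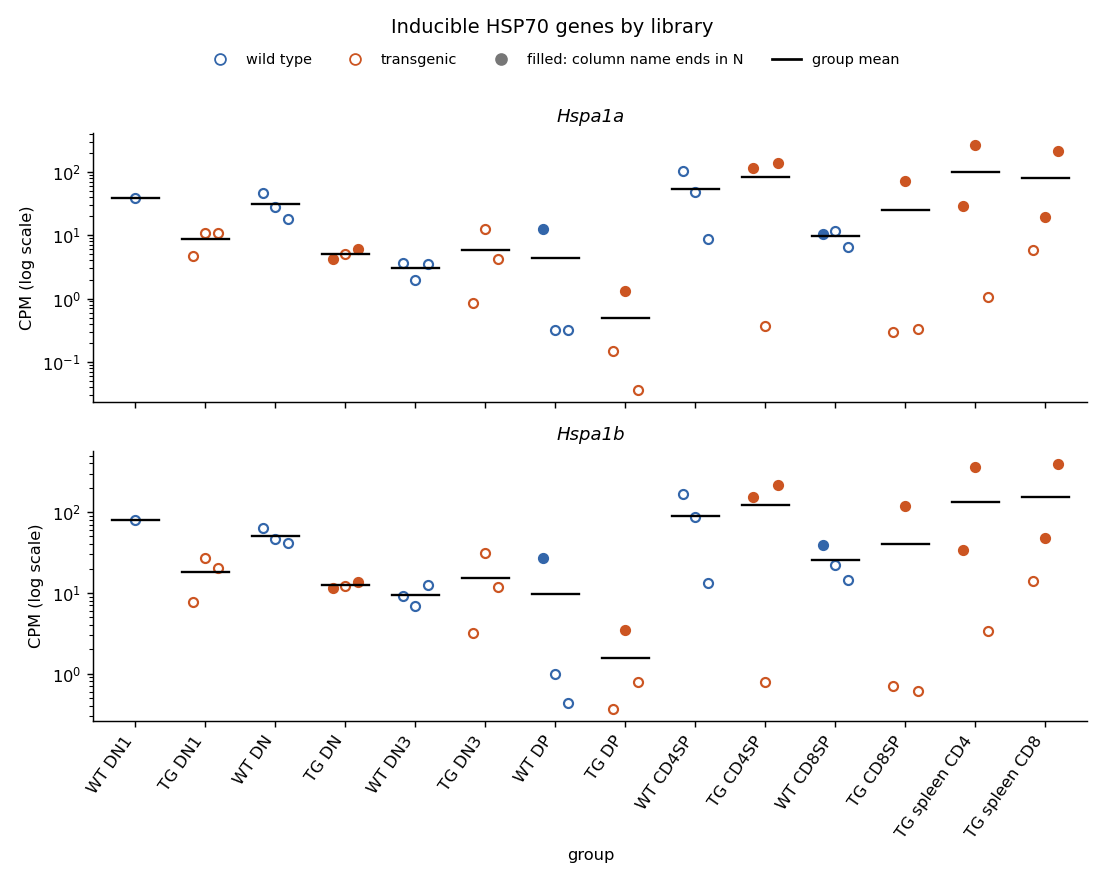
Hspa1a (top) and Hspa1b (bottom) in CPM on a log axis for each of the 40 libraries, by group; filled points are the 12 libraries whose column name ends in N and black bars are group means. Within transgenic CD4SP, CD8SP and splenic groups the filled points lie above the open ones, while the 3 transgenic DN libraries lie together between 4.14 and 6.16 CPM for Hspa1a.

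The other members varied less. The ratio of the highest to the lowest group mean was 2.38 for Hspa8, 2.44 for Dnajb1, 2.98 for Hsp90ab1, 4.43 for Hspd1, 4.59 for Hsph1, 4.70 for Hspe1 and 5.77 for Hsp90aa1. Hsp90aa1 was highest in wild-type DN3, at 1970 ± 17.9 CPM (SD, n = 3), and lowest in the single wild-type DN1 library at 341.3 CPM. The chaperonin genes were lowest by mean in transgenic DP cells, and wild-type DN3 and CD8SP were among their 3 highest groups: Hspd1 was 635.2 ± 58.2 CPM (SD, n = 3) in wild-type DN and 143.5 ± 42.0 CPM (SD, n = 3) in transgenic DP. Hspe1 was 161.1 ± 19.8 CPM (SD, n = 3) in wild-type DN3 and 34.3 ± 6.93 CPM (SD, n = 3) in transgenic DP. In all 7, at least 12 of the 13 neighbouring pairs of groups overlapped.

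Hspb1 was close to the limit of detection in thymic cells. It had a count of 0 in 7 libraries, which allows up to 0.105 to 0.135 CPM (3 counts of the library total; counting error only). Its highest group was transgenic splenic CD4, at 2.93, 2.92 and 2.60 CPM, followed by splenic CD8 at 0.0835, 1.09 and 1.11 CPM. The 6 B-cell markers summed to 455.5 to 1842 CPM and the 8 myeloid markers to 422 to 3127 CPM in the splenic CD4 libraries, against 19.8 to 54.9 and 29.6 to 105.9 CPM in transgenic CD4SP. None of these 14 markers was at 0 in the splenic means. Within splenic CD8, replicate 1 had the highest of both sums (3639 and 3116 CPM) and the lowest Hspb1. Within splenic CD4, replicate 3 had the highest of both (1842 and 3127 CPM) and also the lowest Hspb1. The part of these markers in the Hspb1 level was not tested. As these are bulk samples, more cells of a type and more RNA per cell cannot be told apart.

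**Figure D2:**
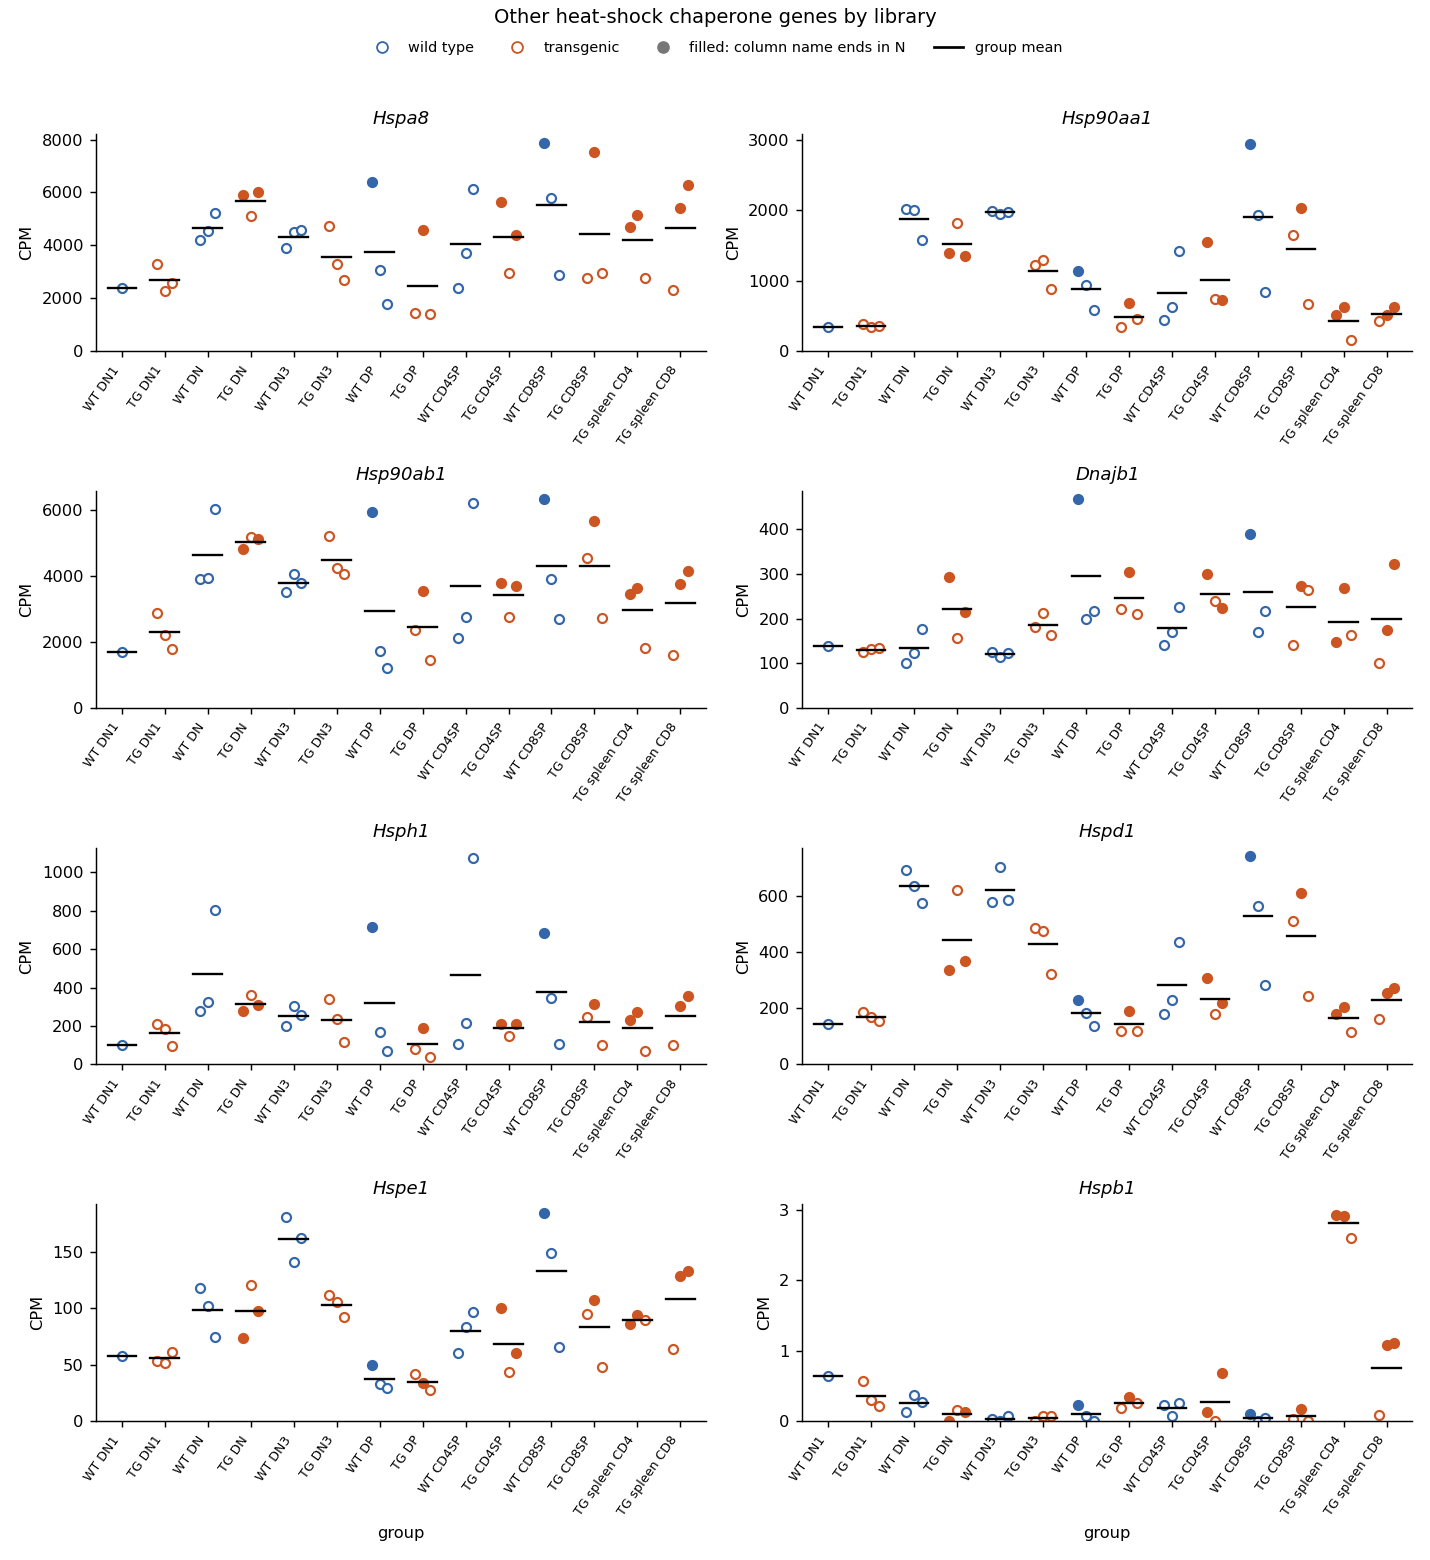
CPM (linear axes from 0) of the other 8 genes in each library by group, with filled points for column names ending in N and black bars for group means. Hsp90aa1, Hspd1 and Hspe1 are higher in wild-type DN3 than in DP, and Hspb1 is at most 0.684 CPM outside the spleen.

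The first design question is whether LMO2 expression changed the chaperone genes at a given stage. Each genotype comparison used edgeR's quasi-likelihood test over all genes, an adjusted p (Benjamini-Hochberg) below 0.05 counting as passing, and log2 fold changes are transgenic over wild type with their standard errors (SE). In total DN cells the inducible HSP70 pair fell and no other member passed. In DN3 cells the pair did not pass, while 3 members fell and 1 rose. In DP, CD4SP, CD8SP and DN1 cells no member passed.

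In DN cells, Hspa1a was 46.5, 27.6 and 18.3 CPM in wild type and 4.14, 5.06 and 6.16 CPM in transgenic libraries. Every transgenic library lay below every wild-type one, which in either direction held for 38.6% of all genes. The log2 fold change was -2.64 (SE 0.37), with an adjusted p of 0.00752 in edgeR's test. Hspa1b was 64.4, 46.8 and 41.7 CPM against 11.6, 12.3 and 13.4 CPM, again without overlap. Its log2 fold change was -2.08 (SE 0.21), with an adjusted p of 0.00187. With both genes' counts summed to 1 feature, the log2 fold change was -2.26 (adjusted p = 0.00297), so the result does not rest on how reads were divided between the near-identical genes.

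These were 2 of the 9 members tested in DN cells, where 12.4% of all genes passed, 7.47% higher and 4.89% lower; Hspb1 was too low to test. Both passed in all 6 fits that left out 1 library. Of the transgenic DN libraries 2 carry the letter N and none of the wild-type ones does, and with a term for the letter Hspa1b passed (adjusted p = 0.0321) and Hspa1a did not (adjusted p = 0.132). Neither passed in 1 fit of all 40 libraries, which gives every group the same spread (adjusted p = 0.324 for Hspa1a and 0.428 for Hspa1b).

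The 7 other members tested in DN cells had adjusted p between 0.126 and 0.898. Dnajb1 was 101, 122 and 176 CPM in wild type and 293, 156 and 215 CPM in transgenic cells, and the groups overlapped. Hspd1 was 693, 636 and 577 CPM against 337, 621 and 368 CPM. Both passed when the transgenic library without the letter N, replicate 2, was left out (Dnajb1 log2 fold change 0.88, adjusted p = 0.0435; Hspd1 -0.90, adjusted p = 0.0125); 4 members and 24.7% of all genes then passed.

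Levels of immediate-early genes and blood-cell markers in the same DN libraries are given beside the pair. Fos, an AP-1 subunit induced within minutes of stimulation, was 183, 171 and 64.2 CPM in wild type and 1.18, 65.8 and 3.88 CPM in transgenic libraries. Of 15 immediate-early genes, 1 rose (Ier3) and none fell at the threshold, and their median log2 fold change was -1.02 against -0.01 over all genes. The 9 red-cell markers summed to 1508 to 22020 CPM in wild type and 47.8 to 2664 CPM in transgenic DN libraries. Of these, 7 could be tested and none passed in edgeR's test, with 0 at an unadjusted p below 0.05; Hbb-b2 was at 0 in the transgenic mean. The 6 B-cell markers summed to 115.9 to 255 CPM and 24.7 to 192.7 CPM, also with none passing in edgeR's test and 0 at an unadjusted p below 0.05. The part of either in the Hspa1a and Hspa1b difference was not tested.

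In DN3 cells, which hold few cells of other lineages by these markers (B-cell sums of 23.96 to 33.47 CPM in wild type and 8.459 to 13.28 CPM in transgenic libraries), no column name ends in N. Hsp90aa1 fell from 1983, 1949 and 1977 CPM in wild type to 1222, 1291 and 881.7 CPM in transgenic libraries, a log2 fold change of -0.80 (SE 0.15; adjusted p = 0.00291). Hspe1 fell from 180, 141 and 162 CPM to 112, 105 and 92.3 CPM (-0.64, SE 0.12; adjusted p = 0.00299). Its partner Hspd1 was 579, 702 and 585 CPM against 486, 476 and 322 CPM and fell as well (-0.54, SE 0.17; adjusted p = 0.0295). Dnajb1 rose from 126, 113 and 123 CPM to 180, 213 and 164 CPM (0.62, SE 0.12; adjusted p = 0.00282). In each of these 4 genes the groups did not overlap, as in 57.6% of all genes.

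These 4 of 9 members tested stand beside 45.7% of all genes passing in DN3 cells (23.4% higher and 22.2% lower), a share close to that of the members. Hsp90aa1, Hspe1 and Dnajb1 passed in all 6 fits that left out 1 library, and Hspd1 in 3 of 6. In 1 fit of all 40 libraries none of these 4 passed, while 2644 of 14845 genes did. The 5 other members tested had adjusted p between 0.16 and 0.80 in edgeR's test of the DN3 libraries alone. Hspa1a was 3.619, 1.963 and 3.485 CPM in wild type and 0.856, 12.7 and 4.20 CPM in transgenic libraries, so the transgenic libraries lay on both sides. Without transgenic replicate 1, Hspa1a, Hspa1b and Hspa8 passed too, making 7 (log2 fold changes 1.47, 1.19 and -0.53), and 36.9% of all genes passed. Without transgenic replicate 2 the direction of Hspa1a and Hspa1b turned (-0.25 and -0.31).

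Whether the genotype difference itself differed between DN and DN3 cells was tested with an interaction term. No member passed, beside 6.02% of all genes in edgeR's fit (2.9% higher and 3.12% lower); the 2 with unadjusted p below 0.05 were Hspa1a (-3.58, SE 1.003; adjusted p = 0.0583) and Hspa1b (-2.77, SE 0.82; adjusted p = 0.0663). DESeq2 called both, with adjusted p of 0.00183 and 0.00405, as did edgeR without transgenic DN3 replicate 1.

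**Figure D3:**
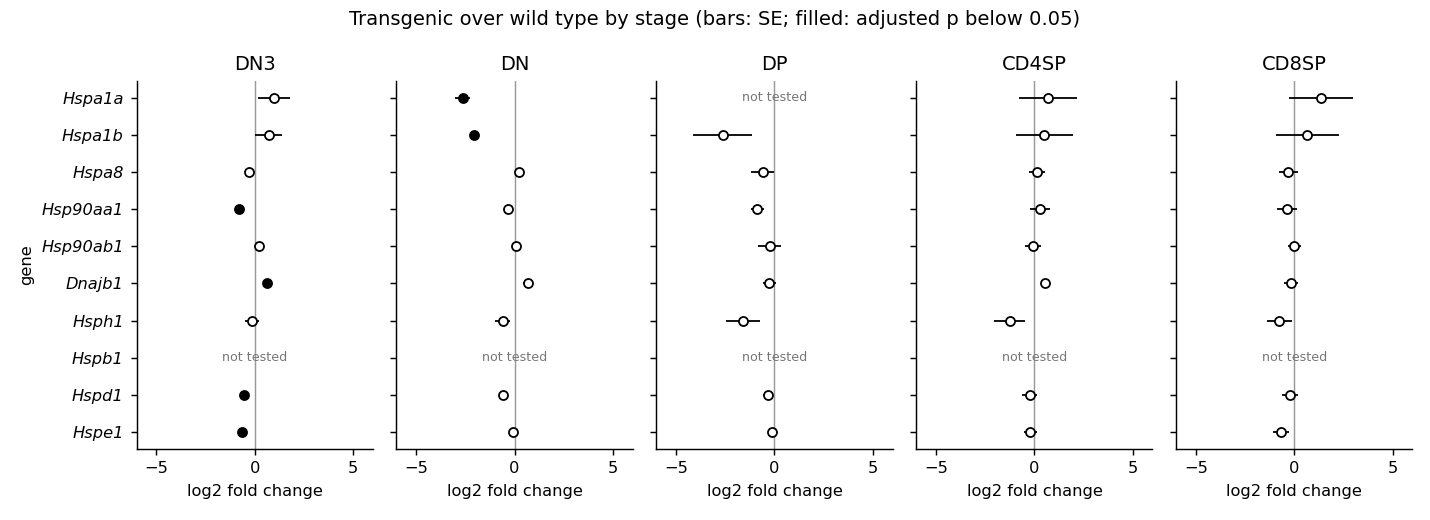
Log2 fold change of transgenic over wild type for each gene at 5 stages, with SE bars; filled points have an adjusted p below 0.05 in edgeR's test and genes too low to test are marked. Hspa1a and Hspa1b are filled and negative in DN only, and Hsp90aa1, Hspd1, Hspe1 (negative) and Dnajb1 (positive) are filled in DN3 only; differences between stages were tested only for DN against DN3 and for CD8SP against CD4SP.

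In DP cells no member passed of 8 tested; 0 of 11649 genes (0.0%) passed in edgeR, with 2450 at an unadjusted p below 0.05 and 605 called by DESeq2. Of the 8 members, 1 had an unadjusted p below 0.05 (Hsp90aa1), and DESeq2 called 0. The genotypes overlapped for every member, while 22.7% of all genes did not overlap. Hspa1b was 27.4, 0.993 and 0.434 CPM in wild type and 0.3693, 3.495 and 0.7894 CPM in transgenic libraries. Its log2 fold change was -2.63 (SE 1.502; adjusted p = 0.326), and 1.06 without wild-type replicate 1, which carries the letter N. The library labelled transgenic DP replicate 3, whose Lmo2 level is that of wild type, held 0.0359 CPM of Hspa1a and 0.789 CPM of Hspa1b. Without it, 906 of 11919 genes passed in edgeR's test but 0 members did, and the log2 fold change of Hspa1b was -2.32 (adjusted p = 0.391).

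In CD4SP cells none of 9 members tested passed, beside 25.9% of all genes, and their adjusted p ran from 0.118 to 0.892; the unadjusted p was below 0.05 for 1 of them (Dnajb1), and DESeq2 called 0. The genotypes overlapped for all of these, while 49.7% of all genes did not overlap. Hspa1a was 104, 48.8 and 8.81 CPM in wild type against the 116, 0.374 and 138 CPM of the transgenic libraries, with a log2 fold change of 0.69 (SE 1.48). Hsph1 was 105.4, 213.1 and 1075 CPM in wild type and 212, 146 and 211 CPM in transgenic cells, so wild-type replicate 3 was high for Hsph1 and low for Hspa1a. The transgenic libraries with the letter N are the 2 high in Hspa1a. The library without it, replicate 2, also had the highest sum of T-cell stage markers, which include Cd4, Cd8a and Rag1. That sum was 17550 CPM, against 3833 and 8298 CPM in the N libraries and 17690 to 22860 CPM in wild-type DP. In this group the letter and the marker content cannot be told apart. With a term for that letter, transgenic replicate 2 alone stands against wild type, and Hspa1a and Hspa1b pass in the opposite direction (log2 fold changes -7.15 and -6.83; adjusted p = 0.0351 and 0.0383).

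In CD8SP cells none of 9 passed, beside 4.45% of all genes (2.09% higher and 2.36% lower), with adjusted p from 0.423 to 0.996 in edgeR, no unadjusted p below 0.05 and 0 called by DESeq2. The genotypes overlapped for all of these, while 25.6% of all genes did not overlap. Hspa1a was 10.5, 11.9 and 6.46 CPM in wild type, between the high and the low transgenic libraries given above. Its log2 fold change was 1.35 (SE 1.63), and Hspa1b had 0.66 (SE 1.59). Without transgenic replicate 2, the library with the letter N, both passed edgeR's test in the opposite direction, beside 3.17% of all genes. They had -4.91 (SE 0.45, adjusted p = 0.00605) and -5.24 (SE 0.52, adjusted p = 0.00724). That library also had the highest sum of dendritic-cell markers such as Itgax, 105.3 CPM against 6.968 and 1.378 CPM. Its sum of T-cell stage markers was the lowest, 4997 CPM against 6084 and 14460 CPM. In this group the letter and the marker content cannot be told apart. The genotype difference was not called different between CD8SP and CD4SP for any member (0.032% of all genes in edgeR, 0.008% higher and 0.024% lower; adjusted p from 0.479 to 0.976, no unadjusted p below 0.05, and 0 called by DESeq2).

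In DN1 cells, with 1 wild-type library, the spread was taken from all 40 libraries, and the lone library is assumed to vary like the other groups. No gene of 14845 passed (0.0%), with 157 at an unadjusted p below 0.05 and 3 called by DESeq2; no member had an unadjusted p below 0.05, and DESeq2 called no member. Hspa1a was 38.7 CPM in the wild-type library and 4.65, 11.1 and 10.8 CPM in the transgenic ones, and Hspa1b 80.9 CPM against 7.67, 27.0 and 20.3 CPM. The log2 fold changes were -2.13 (SE 2.06) and -2.14 (SE 1.998).

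The design also orders cells by maturation within a genotype. From wild-type DN3 to DP, a transition from pre-TCR selection to a mostly resting state, the mitochondrial pair and Hsp90aa1 fell and Dnajb1 rose. Hspe1 was 180, 141 and 162 CPM in DN3 and 49.3, 32.8 and 29.0 CPM in DP (log2 fold change -2.13, SE 0.23; adjusted p = 6.4e-05). Hspd1 was 229, 182 and 138 CPM in DP (-1.77, SE 0.22; adjusted p = 0.000137). Hsp90aa1 was 1139, 943.7 and 580.9 CPM in DP (-1.16, SE 0.25; adjusted p = 0.00311). Dnajb1 was 468, 198 and 217 CPM (1.28, SE 0.32; adjusted p = 0.00722). Stages did not overlap in these 4, as in 68.0% of all genes.

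These 4 of 9 members passed beside 60.0% of all genes (28.6% higher and 31.4% lower), and all 4 passed in each of the 6 fits without 1 library. Wild-type DP replicate 1, with the letter N, was the highest of its group for all 9 members tested. Without it all 9 passed, beside 68.2% of all genes, with Dnajb1 still higher and the other 8 lower. Hspa1a then had a log2 fold change of -3.30 (SE 0.42; adjusted p = 0.000274) and Hspa1b -3.78 (SE 0.41; adjusted p = 0.000118), against 0.54 and 0.03 with it. Dnajb1 moved from 1.28 to 0.72.

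From wild-type DP to CD4SP only Hspe1 passed of 9 members tested, beside 43.9% of all genes (23.4% higher and 20.5% lower). It rose to 60.2, 83.2 and 96.6 CPM (log2 fold change 1.12, SE 0.26; adjusted p = 0.011) and passed in all 6 fits without 1 library. Its stages did not overlap, as in 56.2% of all genes. Hspa1a had 3.65 (SE 1.42; adjusted p = 0.0754) and Hspa1b 3.24 (SE 1.48; adjusted p = 0.121). Without wild-type DP replicate 1 both passed, at 7.41 and 6.99 (adjusted p = 0.00614 and 0.00646; 53.7% of all genes). Each wild-type CD4SP library, at 104, 48.8 and 8.81 CPM of Hspa1a, stood above the 2 remaining DP libraries at 0.318 and 0.316 CPM.

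From wild-type DP to CD8SP the mitochondrial pair rose together, 2 of 9 members beside 37.7% of all genes (20.8% higher and 16.9% lower); the stages of both did not overlap, as in 54.1% of all genes. Hspe1 reached 184, 149 and 65.8 CPM (log2 fold change 1.78, SE 0.37; adjusted p = 0.00903) and Hspd1 741, 564 and 282 CPM (1.47, SE 0.35; adjusted p = 0.0141). The highest library of CD8SP, replicate 1, carries the letter N; without it Hspe1 passed (1.49, adjusted p = 0.0392) and Hspd1 did not (1.16, adjusted p = 0.0584). Without wild-type DP replicate 1, 5 members passed beside 46.0% of all genes, Hspa1a (4.86), Hspa1b (5.09) and Hsp90ab1 (1.51) being the added ones. The DP libraries are shared by the 3 maturation comparisons, so these are not independent.

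In transgenic cells, Hsp90aa1 was the only member that passed between splenic and thymic T cells. It was 1640, 2027 and 670.9 CPM in CD8SP and 432, 514 and 630 CPM in splenic CD8 cells, a log2 fold change of -1.52 (SE 0.42; adjusted p = 0.0309), beside 37.3% of all genes (17.2% higher and 20.1% lower). The groups did not overlap, as in 56.1% of all genes, but the call held in only 1 of the 6 fits without 1 library. Between splenic CD4 and CD4SP cells none of 10 passed (24.5% of all genes; 1 with an unadjusted p below 0.05), and Hspb1 came nearest (adjusted p = 0.0822; 0.0181 in DESeq2, which called that gene alone). Splenic libraries carry RNA of B cells and myeloid cells, as given above for CD4; in splenic CD8 the 6 B-cell markers summed to 495.8 to 3639 CPM, against 8.84 to 26.0 CPM in CD8SP.

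The libraries whose column name ends in N were compared with the other libraries of the same group in 24 libraries of 8 groups, a test added after the data had been seen. All 10 chaperone genes were higher in the N libraries and 6 passed, none in the other direction, beside 7.78% of all genes in either direction and 3.65% higher. Hspa8 differed most evenly: each N library lay above each other library of its group in 8 of 8 groups, which holds for 0.55% of all genes tested in that direction. In wild-type DP the N library held 6404 CPM of Hspa8 against 3054 and 1801 CPM, and in transgenic DP 4572 CPM against 1429 and 1409 CPM. In transgenic CD8SP it was 7524 CPM against 2780 and 2950 CPM, and in transgenic CD4SP 5645 and 4404 CPM against 2940 CPM. Its log2 difference was 1.06 (SE 0.15; adjusted p = 0.00351).

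The inducible pair differed by the widest margin, 4.57 (SE 1.02; adjusted p = 0.0157) for Hspa1a and 4.20 (SE 0.89; adjusted p = 0.0131) for Hspa1b. It did so unevenly: the N libraries held 127 CPM of Hspa1a on average against 0.374 CPM in transgenic CD4SP, but 5.15 against 5.06 CPM in transgenic DN. Hsph1 (1.295, SE 0.289; adjusted p = 0.0157), Hsp90ab1 (0.89, SE 0.18; adjusted p = 0.00851) and Dnajb1 (0.69, SE 0.16; adjusted p = 0.0178) also passed. Hsp90aa1, Hspd1, Hspb1 and Hspe1 did not, with adjusted p of 0.0606, 0.0954, 0.144 and 0.161. Over the 80 pairs of gene and group the N mean of log2(CPM + 0.5) was higher in 73. For each of the 10 genes it was higher in at least 7 of 8 groups, as for 10.2% of all genes tested. The 10 genes vary together within groups (r from 0.254 to 0.989), so the 80 pairs are not separate observations.

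**Figure D4:**
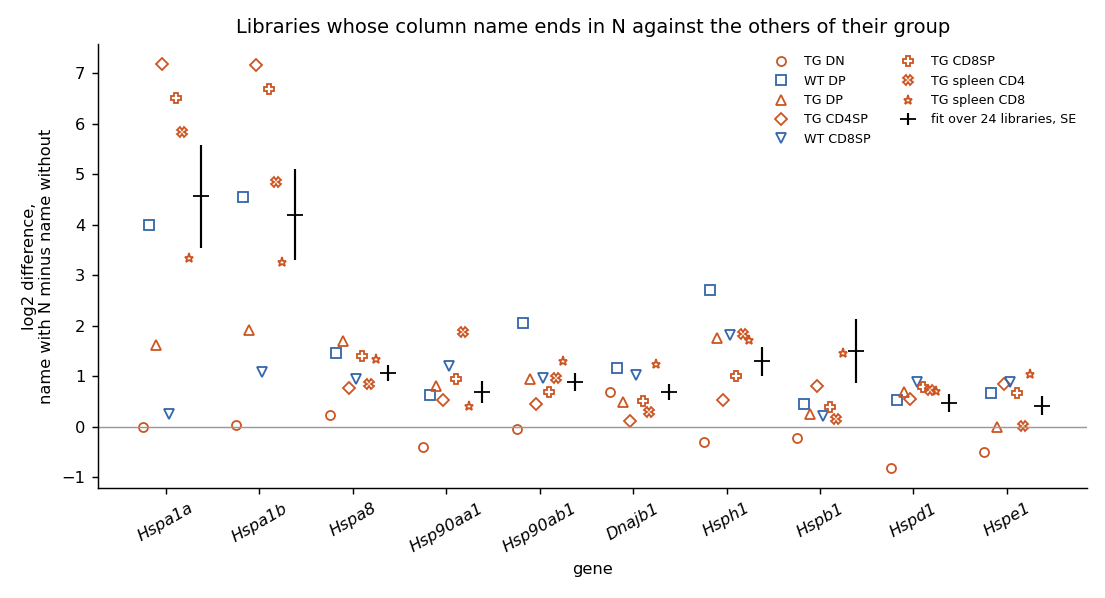
Log2 difference (CPM + 0.5) between the mean of the libraries with N and the mean of those without, for each gene in each of 8 groups (symbols), with the fitted difference over 24 libraries and its SE (black). Hspa8 is above 0 in all 8 groups, and in transgenic DN it is below 0 for Hsp90aa1, Hsp90ab1, Hsph1, Hspb1, Hspd1 and Hspe1.

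The N libraries had lower totals, with a median of 21602140 counts against 25935489. Without the wild-type DP group only Hspa8 and Hsp90ab1 passed, beside 2.14% of all genes. Without transgenic CD8SP 4 members passed, beside 2.59% of all genes. The letter is known from column names only. By the same test 2 of 15 T-cell stage markers and 1 of 7 red-cell markers tested were lower in the N libraries. None was higher. In splenic CD8 the B-cell and myeloid sums were 3639 and 3116 CPM in the library without N. The N libraries there held at most 753.1 and 136.5 CPM. In splenic CD4 the sums were 1842 and 3127 CPM without N, against at most 940.1 and 560.4 CPM. In transgenic CD4SP both sums were instead lowest in the library without N (19.77 and 29.57 CPM). The part of any of these markers in the chaperone differences was not tested.

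The regulator and partners of the chaperones were read from lists of related genes. A value by column name is given for only some of them, and its absence does not mean that the letter has no part. Hsf1, the main heat-shock factor, rose in transgenic DN cells from 75.1 ± 5.90 CPM to 107.9 ± 6.90 CPM (SD, n = 3 each; log2 fold change 0.48, SE 0.13; adjusted p = 0.0492), while Hspa1a and Hspa1b fell there. Its genotype difference was larger in DN than in DN3 cells (0.59, SE 0.15; adjusted p = 0.0447), where it was -0.10 (SE 0.10). Hsf1 was also 0.41 (SE 0.09; adjusted p = 0.0157) higher in N libraries, which the transgenic DN group holds and the wild-type one does not.

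Among genes that bind or release HSP70, St13, which encodes an HSP70-interacting protein, rose in DN cells. It went from 216.6 ± 18.5 CPM to 381.7 ± 17.2 CPM (SD, n = 3 each, log2 fold change 0.78, adjusted p = 0.0139 in edgeR's test). Hspbp1, a nucleotide exchange factor, rose from 50.7 ± 0.92 to 79.1 ± 6.65 CPM (SD, n = 3 each, 0.60, adjusted p = 0.0266 in edgeR's test). These were 2 of 10 such genes, beside 12.4% of all genes passing in DN cells. St13 was also 0.71 higher in N libraries (adjusted p = 0.00407). In CD4SP cells 1 of the 10 passed, beside 25.9% of all genes. Bag3, an HSP70 co-chaperone of selective autophagy and itself an HSF1 target, rose there from 4.93 ± 3.88 to 25.7 ± 10.9 CPM (SD, n = 3 each, 2.41, adjusted p = 0.0321 in edgeR's test). Bag3 differed by 1.43 between N libraries and others (adjusted p = 0.000801), and it rose by 1.53 (adjusted p = 0.0013) in DN3 cells, where no name ends in N.

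Of 11 other HSP70 and HSP110 genes, Hspa12b and Hspa2 rose in both DN and CD4SP cells and none fell in either. These stand beside 12.4% of all genes passing in DN cells and 25.9% in CD4SP cells, in either direction. Hspa2, the testis-enriched HSP70, was 9.11 ± 4.86 CPM against 2.52 ± 0.26 in DN and 7.95 ± 2.55 CPM against 1.32 ± 0.46 in CD4SP (SD, n = 3 each; adjusted p = 0.0432 and 0.0122). Hspa12b, a distant HSP70 relative, was 4.75 ± 2.35 CPM against 0.95 ± 0.17 and 3.45 ± 0.68 CPM against 0.31 ± 0.08 (SD, n = 3 each; adjusted p = 0.0273 and 0.008). By column name their adjusted p was 0.469 for Hspa2 and 0.817 for Hspa12b.

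Of 16 HSP90 co-chaperones and other HSP90 genes, 1 rose and 6 fell in DN3 cells, with a median log2 fold change of -0.29 against -0.03 over all genes; 45.7% of all genes passed there, a share close to that of the list. In DN cells 1 fell, beside 12.4% of all genes passing. This was Cdc37l1 (73.9 ± 9.08 to 50.6 ± 6.18 CPM, SD, n = 3 each, adjusted p = 0.0433 in edgeR's test). In CD4SP cells 2 rose, beside 25.9% of all genes passing. Fkbp5, an HSP90-binding immunophilin induced by glucocorticoids, went from 118 ± 61.2 to 472.6 ± 84.2 CPM (SD, n = 3 each, 2.02, adjusted p = 0.0134 in edgeR's test). Cdc37, the kinase-loading co-chaperone, rose by 0.58 (adjusted p = 0.0397 in that test). In N libraries 6 of the 16 were higher and 1, Cdc37l1, lower.

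Of 15 known heat-shock factor targets other than the members, 12 could be tested in DN3 cells, where 3 rose and 2 fell, beside 45.7% of all genes. By column name 13 could be tested, and 5 were higher and none lower in the N libraries, beside 3.65% of all genes higher and 7.78% in either direction.

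The cytosolic chaperonin CCT folds actin and tubulin together with prefoldin. Of its 14 genes none rose and 7 fell in DN3 cells (median -0.28), beside 45.7% of all genes passing and 22.2% lower. From wild-type DN3 to DP 11 fell (median -0.94), beside 60.0% passing and 31.4% lower. From DP to CD8SP 9 rose (median 0.66), beside 37.7% passing and 20.8% higher. In DN cells 1 rose, beside 12.4% of all genes passing. This was Pfdn5, from 53.6 ± 11.4 to 105 ± 9.70 CPM (SD, n = 3 each, adjusted p = 0.0228 in edgeR's test). The 11 other mitochondrial chaperones and proteases included the following calls: 4 fell in DN3 cells and none rose, 7 fell from DN3 to DP, and 7 rose from DP to CD8SP, beside the same shares of all genes. In CD4SP cells 25.9% of all genes passed. There the mitochondrial protease Lonp1 rose by 0.56 (adjusted p = 0.0346 in edgeR's test). Grpel2, an exchange factor of mitochondrial HSP70, fell by 0.60 (adjusted p = 0.0447 in that test).

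Of 18 other J-domain genes 2 rose and 6 fell in DN3 cells, close to the 45.7% of all genes that passed there. In CD4SP cells 1 rose and 2 fell, beside 25.9% of all genes passing in edgeR's test. Dnajc9, a histone co-chaperone, rose by 1.06 (adjusted p = 0.0285 in that test). Dnajb5 fell by 1.18 (adjusted p = 0.0381) and Dnajb9, a target of the endoplasmic reticulum stress response, fell by 0.93 (adjusted p = 0.0209). Of 19 endoplasmic reticulum stress genes 1 rose and 7 fell in DN3 cells, again near that share. In DN cells the lumenal lectin chaperone Calr rose from 546.5 ± 29.2 to 1254 ± 466.7 CPM (SD, n = 3 each; 1.15, adjusted p = 0.0284), and Calr was 0.57 higher in N libraries (adjusted p = 0.0159). In CD4SP cells Xbp1 rose by 0.93 (adjusted p = 0.0472) and Ddit3 fell by 0.55 (adjusted p = 0.0448).

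The genes whose pattern was most like that of the inducible pair were sought among 9833 genes by Pearson's r with the mean log2(CPM + 0.5) of Hspa1a and Hspa1b. Over the 14 group means the 8 nearest were Jun (0.906), Rgs1 (0.864), Fos (0.863), Fosb (0.846), Klf4 (0.846), Psme2b (0.833), Ank (0.822) and Cyb5rl (0.821). Jun, Fos, Fosb and Klf4 are transcription factor genes of the immediate-early kind. The other chaperone members were not near: r was between -0.414 for Dnajb1 and 0.443 for Hspb1. Groups differ in how many N libraries they hold, and the values are descriptions without a test.

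**Figure D5:**
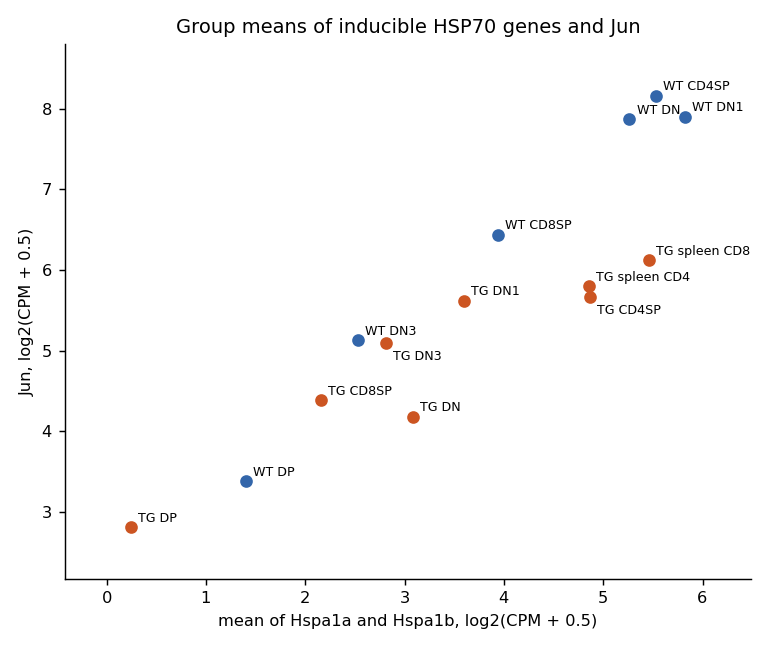
Group means of log2(CPM + 0.5) for Jun (vertical) against the mean of Hspa1a and Hspa1b (horizontal), 1 point for each of the 14 groups. Both are lowest in transgenic DP and high in wild-type DN1, DN and CD4SP, with r = 0.906.

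Within groups, over deviations of 39 libraries from their group means, the nearest were B4galnt4 (0.805), Slc39a4 (0.796), Ass1 (0.765), Jun (0.757), Hgh1 (0.75), Runx2 (0.732), Commd7 (0.73) and Sytl2 (0.73). Jun alone was named in both searches. Hspa1a and Hspa1b themselves went together at r = 0.989, and Hsph1 with Hsp90ab1 at 0.96, Hsp90aa1 with Hspd1 at 0.916 and Hspd1 with Hspe1 at 0.806. All 45 pairs of members had a positive r within groups, from 0.254 to 0.989 with a median of 0.535. The points include libraries with and without the letter N, by which 6 of the 10 genes differed, and library totals differ between them.

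Immediate-early genes in CD4SP cells are given beside the pair because of that likeness. There 8 of 13 tested fell and none rose in transgenic libraries, with a median log2 fold change of -2.02, beside 25.9% of all genes passing in either direction, while neither Hspa1a nor Hspa1b passed. Markers of other cells rose in the same libraries, 3 of 4 B-cell and 3 of 5 myeloid markers tested, and Rag1 was 2962 CPM against 136.1 CPM in wild type; their part in these differences was not tested. Junb fell from 875 ± 242.6 to 102.7 ± 71.9 CPM, Dusp1, a phosphatase of MAP kinases, from 242.1 ± 38.5 to 49.5 ± 20.9 CPM and the orphan receptor Nr4a1 from 755.2 ± 66.1 to 180.1 ± 129.2 CPM (SD, n = 3 each; adjusted p = 0.0131, 0.0105 and 0.0283). In DN cells Ier3, the 1 that rose, went from 0.84 ± 0.31 to 3.23 ± 0.94 CPM (SD, n = 3 each; adjusted p = 0.0424), and Ier3 was 1.38 higher in N libraries (adjusted p = 0.0442).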

How the data were processed

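Count values per gene were deposited by the authors in 1 table of 40 mapped libraries, beside FPKM values deposited by the authors; aligner, counter and build are not named by role, although mm10, mm9, Bowtie2, DESeq2, HISAT and MACS2 appear in the submitters' processing notes. FPKM served only to compare levels between genes. Of the table's per-sample columns, 4 matched no sample and were left out. Peak lists of 5 chromatin immunoprecipitation libraries were not used here.

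Libraries were grouped by title. Counts were tested with edgeR 4.0.16 (R 4.3.3; robust quasi-likelihood fit, TMM, filterByExpr with a minimum count of 10 and total of 15, Benjamini-Hochberg over all genes tested), each fit holding only the groups compared; SE is the log2 fold change divided by the root of its F. DESeq2 1.42.0, RLE scaling, no filter, a replicate block, 1 fit of all libraries, a term for the letter N and leaving out each library were alternatives. The test of the letter N was added after the data had been seen. Scripts were tested on simulated data. Replicate pairs differed by more than sampling noise (lowest chi-square per degree of freedom 6.33).

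The members and gene lists were chosen with earlier results of these data known. Named list genes were, per list, up to 3 with the smallest adjusted p in DN and in CD4SP cells among those passing; Bag3 in DN3 cells and the values by column name were picked after they had been seen. Hspa1a and Hspa1b are near-identical, so reads may be divided between them; no source states whether counting used strand.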

Additional observations from a re-analysis of the deposited data

How the results depend on the processing

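The counts of members passing moved by over 1.5 times under these settings. In 1 fit of all libraries, 0 passed in DN3, 0 in DN, 2 in splenic CD4 against CD4SP and 3 in splenic CD8 against CD8SP. Of all 14845 genes, 2644, 1727, 6867 and 7722 passed in these, in the same order. With a term for the letter N, 1 passed in DN, 2 in CD4SP, 9 from wild-type DN3 to DP, 3 from DP to CD4SP and 2 in splenic CD8. All genes passing were then 201 of 13295 in DN and 2258 of 13144 in CD4SP. They were 8458 of 12646 from DN3 to DP, 6597 of 12577 from DP to CD4SP and 5316 of 12613 in splenic CD8. With the replicate block, 3 passed from DP to CD4SP, 4 from DP to CD8SP and 0 in splenic CD8 against CD8SP. All genes passing with it were 3875 of 12220, 5449 of 11977 and 3248 of 12613, in the same order. DESeq2 called 1 in splenic CD4, 2 in splenic CD8 and 2 in the DN against DN3 interaction. It called 4479 of 12578, 5413 of 12185 and 2037 of 12880 genes there. For the letter N, 2 passed without wild-type DP, beside 2.14% of all genes. Leaving out 1 library gave 3 to 7 in DN3, 2 to 4 in DN, 0 to 2 in CD8SP, 4 to 9 from DN3 to DP, 1 to 3 from DP to CD4SP, 1 to 5 from DP to CD8SP, 0 to 1 in splenic CD4, 0 to 2 in splenic CD8 and 0 to 2 in the DN against DN3 interaction. The numbers of all genes passing moved too. They were 3802 to 6185 in DN3, 179 to 3146 in DN, 9 to 724 in CD8SP and 5830 to 8329 from DN3 to DP. From DP they were 3747 to 6540 to CD4SP and 2163 to 5495 to CD8SP. In splenic CD4 they were 461 to 3227, in splenic CD8 2626 to 5354 and in the interaction 19 to 2418. Other counts stayed within 1.5 times. RLE scaling moved none.

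Among the folds recomputed, those of called members and of the inducible pair, only uncalled folds of the inducible pair turned. With the replicate block, Hspa1a and Hspa1b had -0.066 and -0.275 in CD4SP, -2.11 and -2.83 in CD8SP, and -1.06 and -1.76 from DN3 to DP. With a term for the letter N they had -7.15 and -6.83, -2.37 and -2.70, and -3.28 and -3.76. Without the filter Hspa1b had -0.037 from DN3 to DP. Without 1 library, Hspa1a ranged from -0.25 to 1.47 in DN3, -4.91 to 1.93 in CD8SP and -3.298 to 1.104 from DN3 to DP; Hspa1b from -0.31 to 1.19, -5.24 to 1.23 and -3.78 to 0.61, and also -4.06 to 1.06 in DP and -0.15 to 1.32 in CD4SP. The cause was not tested beyond the libraries named. Same-numbered libraries did not correlate above 0.1 in all 3 pairs of any comparison. From wild-type DP to CD8SP, however, r was 0.447, 0.458 and 0.095. Whether equal numbers share a mouse, litter or day is stated by no label, and these values cannot settle it. Depth limits Hspb1, at most 61 counts in a library, and Hspa1a in DP cells, where 1 library held 1 count.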
